A study of Mus musculus with 76 samples.

Results

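The Cd74-high iHPCs were the 20 of 76 single mouse cells in which Cd74 reached 10 TPM, and the other 56 cells lay below that level. They were chosen by their measured Cd74 level alone. TPM is a gene's share of a cell's transcripts after scaling for gene length, set so that each cell sums to 1000000. The Cd74-high cells made up 26.3% of the cells (exact Clopper-Pearson 95% interval 16.9 to 37.7%). The iHPCs, per the labels, are progenitor cells obtained from pluripotent stem cells by inducible expression of Runx1, Hoxa9 and Hoxa10, so both sets of cells carry all 3 introduced factors. Single cells were sorted, and polyA RNA of each was amplified and sequenced as a library of its own. All cells carry the same label, and no culture, animal, clone or sort was named for any of them. They therefore counted as 1 sample, cells gave no p-value and no standard error, and "higher" and "lower" below describe these cells only. Intervals cover the counting of cells.

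Cd74 encodes the invariant chain, which occupies the groove of newly made MHC class II molecules and carries them from the endoplasmic reticulum to the compartments where peptides are loaded. The class II alpha and beta chains (H2-A and H2-E in the mouse), the peptide-loading molecules H2-DM and H2-O, and Cd74 are usually switched on together by the coactivator Ciita, which acts with factors bound to the conserved X and Y boxes of their promoters. Dendritic cells, B cells and activated macrophages are the cells best known for this programme.

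Promoters of class II genes are shown because the X and Y boxes are read there, while the transcripts of these genes differed widely in these cells. Of the 9 listed class II genes besides Cd74, 8, all but H2-Ab1, were matched to a promoter window in the RefSeq table (GRCm38.p6), which runs from 250 bases before to 50 bases after a start site. Letter patterns were searched on both strands: AGNAAC followed by any 2 bases and ATG for the X box core, and GATTGG for the Y box. The 2 patterns share no stretch. All 8 genes had the Y box in at least 1 window and 4 had both (H2-Eb1, H2-Eb2, H2-DMb1 and H2-Ob). The 8 genes had 9 windows, and 1 of the H2-DMa windows held no Y box. Among 32851 promoter windows of all genes, 16.1% held the Y box, 0.895% the X pattern and 0.134% both. Matches of either pattern are in capitals, and each sequence runs 5′ to 3′ on the gene's strand. H2-Ob, whose transcript was found in many of these cells, lies on the plus strand at chr17:34238655-34238954. H2-Eb1 and H2-Aa, whose transcripts were nearly absent, lie on the plus strand at chr17:34305617-34305916 and on the minus strand at chr17:34287774-34288073.
H2-Ob: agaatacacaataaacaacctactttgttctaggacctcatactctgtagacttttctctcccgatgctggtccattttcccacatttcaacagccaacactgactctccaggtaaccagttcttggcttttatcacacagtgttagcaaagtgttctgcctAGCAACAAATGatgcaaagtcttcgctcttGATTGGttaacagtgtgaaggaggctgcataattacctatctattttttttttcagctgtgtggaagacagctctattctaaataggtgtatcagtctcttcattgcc
H2-Eb1: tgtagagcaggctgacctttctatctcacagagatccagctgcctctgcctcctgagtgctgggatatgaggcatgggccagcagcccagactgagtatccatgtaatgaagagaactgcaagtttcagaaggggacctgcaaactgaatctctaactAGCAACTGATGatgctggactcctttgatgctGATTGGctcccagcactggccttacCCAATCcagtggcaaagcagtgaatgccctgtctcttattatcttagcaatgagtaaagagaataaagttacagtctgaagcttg
H2-Aa: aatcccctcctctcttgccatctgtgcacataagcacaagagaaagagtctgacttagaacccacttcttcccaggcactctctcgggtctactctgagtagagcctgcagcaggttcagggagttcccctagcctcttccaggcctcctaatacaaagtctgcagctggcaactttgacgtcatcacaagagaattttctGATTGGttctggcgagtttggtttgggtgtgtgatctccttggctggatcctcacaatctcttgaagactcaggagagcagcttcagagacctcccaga
The X pattern stands at bases 163 to 173 and the Y box at bases 193 to 198 of the H2-Ob window, counted from its 5′ end, and at bases 159 to 169 and 191 to 196 of the H2-Eb1 window. H2-Eb1 has a second Y box on the other strand at bases 216 to 221. The H2-Aa window holds the Y box at bases 202 to 207 and no match to the X pattern as spelled here. A match is a description of letters and not a measured binding site.

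Cd74 itself, which chose the cells and is given without a test, fell into separate ranges. In the Cd74-high cells it ran from 35.2 TPM in the lowest cell through a median of 108 TPM to 1138 TPM in the highest. In the other cells it ran from 0 through a median of 1.70 TPM to 7.17 TPM. No cell lay between 7.17 and 35.2 TPM, so a threshold of 20 TPM picked the same 20 cells. Among the Cd74-high cells, 7 were at 200 TPM or more and 13 were below. Cd74 was listed at 0 in 2 of the other cells, above 0 but under 1 TPM in 10, and from 1 to under 10 TPM in 44. Cell titles pair a letter (A to H) with a number (2 to 11), as wells of a plate would be named, and nothing in the labels states what they are. The Cd74-high cells were spread over 7 of the 8 letters, with 5 of 10 cells of letter D and 0 of 9 cells of letter C. There were 8 among 37 cells with numbers 2 to 6 and 12 among 39 cells with numbers 7 to 11.

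**Figure D1:**
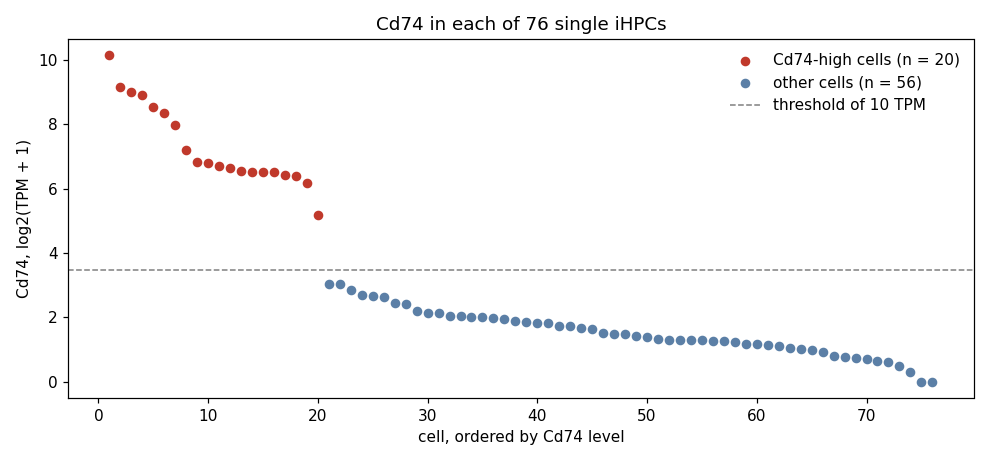
Cd74 level of each of the 76 cells, as log2(TPM + 1), with cells ordered from the highest to the lowest on the horizontal axis. The 20 Cd74-high cells (red) and the 56 other cells (blue) are separated by a gap, 35.2 against 7.17 TPM, in which the threshold of 10 TPM (dashed line) lies.

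Library depth is unknown, since TPM keeps none and every column summed to 1000000 over 15192 listed genes. The number of genes at 1 TPM or more was alike: a median of 4196 (range 2465 to 5704) in Cd74-high cells, against 4182.5 (3061 to 5992) in other cells. Ribosomal-protein genes took a median of 7.02% of TPM in Cd74-high cells and 7.97% in other cells. The cell highest in Cd74 was also the cell with the fewest genes, 2465. Pairwise Spearman correlations of cells lay between 0.485 and 0.725 across genes, and no column repeated another.

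Across genes, the difference of mean log2(TPM + 1), Cd74-high minus other cells, was taken for 7805 genes other than Cd74 that reached 10 TPM in at least 8 of the 76 cells. A size of 1 on this scale stood in for a test. By it, 526 genes (6.74%) were higher and 473 genes (6.06%) were lower in Cd74-high cells, and the median over all genes compared was 0.0083, with an SD over genes of 0.66. By another rule, a share of cells at 10 TPM at least 25 points higher or lower, 103 genes (1.32%) were higher and 65 (0.833%) were lower. The comparison was repeated in the cells with title numbers 2 to 6 and in those with numbers 7 to 11, which share no cell. In numbers 2 to 6, 16% of genes were at least 1 higher and 15% at least 1 lower; in numbers 7 to 11 the shares were 13.5% and 10.9%. Of the 1248 genes higher in numbers 2 to 6, 180 (14.4%) were also higher in numbers 7 to 11, which is close to the 13.5% of all genes. Of the 1051 genes higher in numbers 7 to 11, those 180 made 17.1%, against 16% of all genes. For lower genes, 143 were shared, 12.3% of the 1167 in numbers 2 to 6 against a background of 10.9%, and 16.8% of the 852 in numbers 7 to 11 against a background of 15%. Most genes past the size of 1 in one range of numbers were thus not past it in the other.

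**Figure D2:**
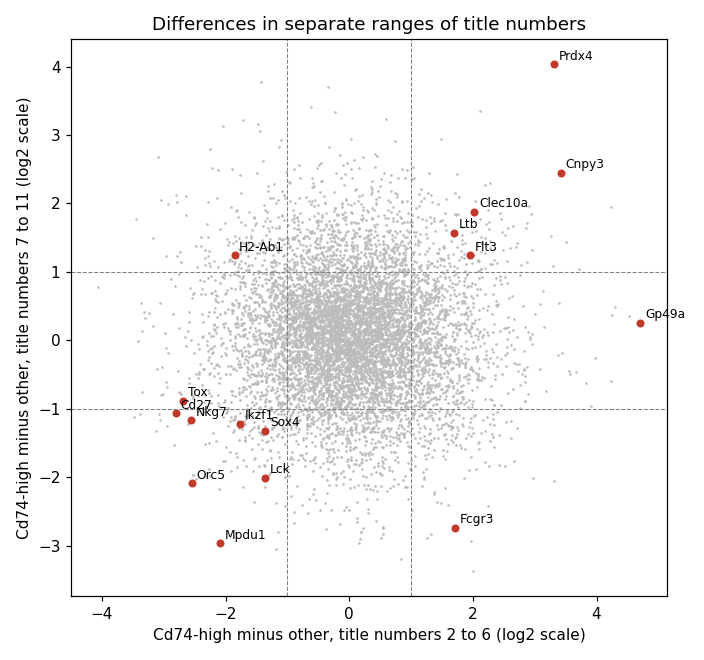
Difference of mean log2(TPM + 1), Cd74-high minus other cells, for each gene compared (grey points), in cells with title numbers 2 to 6 (horizontal, 8 against 29 cells) and 7 to 11 (vertical, 12 against 27 cells). Dashed lines mark differences of 1 and -1, and labelled red points are genes named in the text: H2-Ab1, Gp49a and Fcgr3 differ between the ranges, whereas Prdx4, Cnpy3 and Clec10a lie above 1 in both.

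The other class II molecules compared did not pass the size of 1 between Cd74-high and other cells. Of 9 listed members, 6 were frequent enough to be compared. Of these, 0 were at least 1 higher and 0 at least 1 lower, against 6.74% and 6.06% of all genes. With 6 members, counts of 0 cannot be told from those shares. Their median difference was 0.10. H2-Ab1, the beta chain of the H2-A molecule (chromosome 17, 34263227 to 34269418, GRCm38.p6), reached 10 TPM in 10 of 20 Cd74-high cells (50%, interval 27.2 to 72.8%), against 28 of 56 other cells (50%, 36.3 to 63.7%). Its level ran from 0 through a median of 13.9 to 661 TPM in Cd74-high cells, and from 0 through 11.5 to 1113 TPM in other cells, so the groups overlapped throughout. The mean log2(TPM + 1) was 4.36 ± 3.79 in Cd74-high cells and 4.24 ± 3.24 in other cells (SD over cells), a difference of 0.11.

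The H2-Ab1 difference depended on the range of titles. With numbers 2 to 6, H2-Ab1 reached 10 TPM in 1 of 8 Cd74-high cells (12.5%, interval 0.316 to 52.7%), against 12 of 29 other cells (41.4%, 23.5 to 61.1%), a difference of means of -1.86. With numbers 7 to 11 it did so in 9 of 12 Cd74-high cells (75%, 42.8 to 94.5%), against 16 of 27 other cells (59.3%, 38.8 to 77.6%), a difference of 1.24. The sign of the difference was therefore opposite in the ranges, and the intervals overlapped in both. Within the Cd74-high cells, 7 of the 9 cells highest in Cd74 had H2-Ab1 at 10 TPM, against 3 of the 11 others, a division chosen after the values were seen. In the highest cell, with 1138 TPM of Cd74, H2-Ab1 stood at 290.0 TPM and H2-Ob at 344 TPM, whereas in the third, with 514 TPM, H2-Ab1 was listed at 0 and H2-Ob at 0.535 TPM.

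H2-Aa, the alpha chain that pairs with H2-Ab1, reached 10 TPM in 0 of 20 Cd74-high and 0 of 56 other cells. Its highest values were 2.55 TPM in Cd74-high cells and 4.10 TPM in other cells. H2-Eb1, the beta chain of H2-E, was likewise at 10 TPM in 0 cells of either set, with highest values of 1.02 TPM and 1.69 TPM. Counts of 0 allow shares of up to 16.8% of Cd74-high cells and 6.38% of other cells (exact 95% intervals). H2-Eb2, a further H2-E beta gene, reached 10 TPM in 0 Cd74-high and 2 other cells. No cell of either set therefore held both chains of H2-A at 10 TPM.

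Among the peptide-loading genes, H2-DMa, the alpha chain of the H2-DM editor, was found at 10 TPM in 10 of 20 Cd74-high cells (27.2 to 72.8%), against 35 of 56 other cells (48.5 to 75.1%). It had a median of 31.3 TPM (range 0 to 409) in Cd74-high cells and 62 TPM (0 to 409) in other cells, with a difference of means of -0.87. H2-Ob, the beta chain of the H2-DM inhibitor H2-O, was in 10 Cd74-high and 26 other cells (difference 0.40). Its partner H2-Oa was in 3 Cd74-high and 15 other cells (difference -0.79). The H2-DM beta genes H2-DMb1 and H2-DMb2 were in 3 Cd74-high cells each, against 6 and 8 other cells. H2-DMb1 and H2-DMb2 are neighbouring, highly similar copies, and how reads were divided between them is uncertain. A median of 2 class II molecules besides Cd74 was at 10 TPM per cell in both sets. None was in 3 of 20 Cd74-high cells and in 5 of 56 other cells. The summed level of the list without Cd74 had a median of 327 TPM (0.629 to 1180) in Cd74-high cells and 258 TPM (1.18 to 1688) in other cells.

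**Figure D3:**
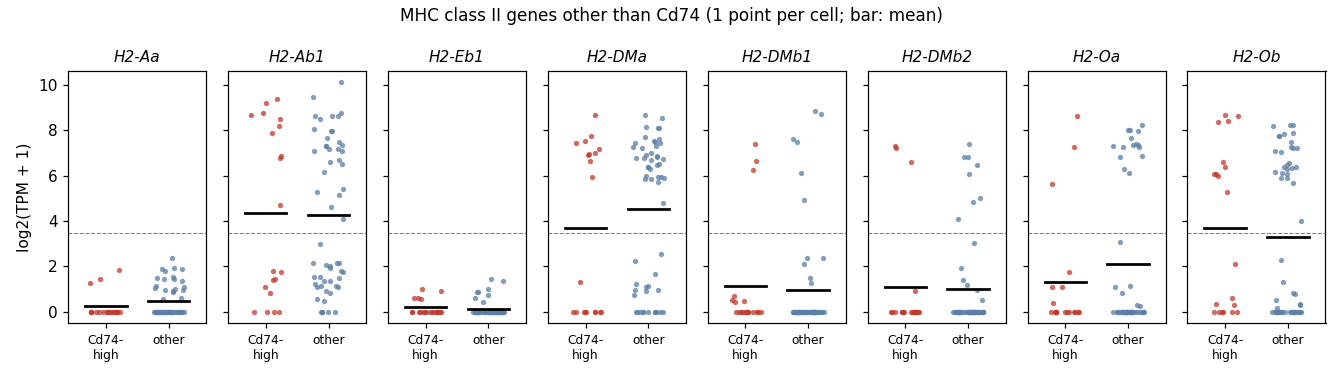
Level of 8 class II genes other than Cd74 in each cell, as log2(TPM + 1), in the 20 Cd74-high cells (red, left) and the 56 other cells (blue, right). Points are cells, solid bars are means and the dashed line is 10 TPM: H2-Aa and H2-Eb1 stay below it in every cell, and H2-Ab1 reaches it in 50% of the cells of both sets.

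The regulators of class II genes gave no shared direction. Ciita, the master coactivator, was listed at 0 in every Cd74-high cell and at no more than 0.263 TPM in the other cells. Rfxank, a subunit of the X box complex RFX, was at 10 TPM in 2 Cd74-high and 16 other cells and averaged 1.20 lower. Within numbers 2 to 6 that difference was -0.35, and within 7 to 11 it was -1.88. Nfyb, a subunit of the Y box factor NF-Y, was in 8 Cd74-high and 12 other cells and averaged 1.05 higher, but 0.79 higher without the cell highest in Cd74. Of the 5 regulators compared, 1 was higher and 1 was lower, against 6.74% and 6.06% of all genes, with a median difference of 0.17. Rfx5, another RFX subunit, reached 10 TPM in 1 Cd74-high and 4 other cells. As a measure of how often low transcripts were missed, Polr2a, the large subunit of RNA polymerase II that every cell needs, was at 10 TPM in 2 of 20 Cd74-high and 10 of 56 other cells.

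Proteases that trim the invariant chain and load the compartment were also mixed. Of 5 compared, 0 were higher and 0 lower by the size of 1, against 6.74% and 6.06% of all genes. Their median difference was 0.14. Ctss, the cathepsin best known for the last cleavage of the invariant chain, was in 7 Cd74-high and 13 other cells (difference 0.69). It differed by -1.29 in numbers 2 to 6 and by 2.09 in numbers 7 to 11. Ctsd, a general lysosomal protease, was in 19 Cd74-high and 55 other cells, with medians of 385 and 508 TPM. Among class I genes, B2m, the light chain of class I molecules, was in every cell, with medians of 1385 TPM in Cd74-high and 1440 TPM in other cells and a difference of -0.06. Only Tapbp, which tethers class I molecules to the peptide transporter, was past the size of 1 among 10 class I genes (17 Cd74-high and 37 other cells, difference 1.15, with 0.46 in numbers 2 to 6 and 1.81 in 7 to 11), and the list median was 0.28, against 6.74% of all genes past 1.

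Genes of conventional dendritic cells included several that were higher in Cd74-high cells. Of 6 members compared, 3 were at least 1 higher and 0 lower, with a median of 0.88, against 6.74% of all genes. The other 12 of the 18 listed members did not reach 10 TPM in 8 cells. Clec10a, a lectin of dendritic cells and macrophages, was in 16 of 20 Cd74-high cells (80%, interval 56.3 to 94.3%), against 32 of 56 other cells (57.1%, 43.2 to 70.3%). It ran from 0 through 235 to 3082 TPM in Cd74-high cells and from 0 through 111 to 3855 TPM in other cells. The difference of means was 2.09, with 2.02 in numbers 2 to 6 and 1.88 in numbers 7 to 11, and the highest cell of all lay outside the Cd74-high set. Mgl2, a close copy of Clec10a, was in 5 Cd74-high and 10 other cells, each of them also with Clec10a, and reads of the pair may be divided wrongly.

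Flt3, the cytokine receptor that drives dendritic and early lymphoid development, was in 14 Cd74-high cells (70%, 45.7 to 88.1%), against 25 other cells (44.6%, 31.3 to 58.5%). It had medians of 37.5 TPM and 0.463 TPM, and a difference of 1.32. Compared only with cells under 1 TPM of Cd74, the difference was 0.04. Sirpa, an inhibitory receptor of the cDC2 type, was in 8 Cd74-high and 10 other cells (difference 1.15, or 0.62 at a Cd74 threshold of 5 TPM and 0.90 in numbers 7 to 11). Irf8, a factor needed for cDC1 cells, was in 12 Cd74-high and 30 other cells, with a difference of 0.23. The more selective dendritic genes were scarce. Itgax (CD11c), the factor gene Zbtb46 and the costimulatory gene Cd86 were in 0 Cd74-high cells, against 2, 1 and 5 other cells. Irf4, Xcr1, Cd209a and Cd80 were at 10 TPM in 0 cells of either set. The summed level of the list had a median of 627 TPM (3.73 to 3268) in Cd74-high cells and 395 TPM (5.64 to 4329) in other cells.

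Of the plasmacytoid dendritic list, 1 of 4 members compared was higher and 0 were lower, against 6.74% and 6.06% of all genes (median 0.16). Tcf4, the E protein that specifies this lineage, was in 18 of 20 Cd74-high cells (90%, 68.3 to 98.8%), against 31 of 56 other cells (55.4%, 41.5 to 68.7%). Its level ran from 0.111 through 37.7 to 78.2 TPM in Cd74-high cells and from 0 through 29.7 to 349 TPM in other cells. The difference of means was 1.03, but 0.96 without the cell highest in Cd74, 0.41 in numbers 2 to 6 and 1.59 in numbers 7 to 11. Thus Tcf4 was found in a larger share of Cd74-high cells, while its highest levels were in other cells. Bst2, a surface protein of plasmacytoid and interferon-exposed cells, was in 17 Cd74-high and 46 other cells (difference 0.16). Spib and Ly6d were in 0 Cd74-high cells, against 1 and 5 other cells. The list's summed level had a median of 257 TPM (28.2 to 673) in Cd74-high cells and 279 TPM (0 to 1453) in other cells.

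Few B cell genes could be compared, and they gave no shared direction. Of 19 on the list, 13 were in the table and 3 could be compared. By the size of 1, 1 of the 3 compared was higher and 0 were lower, against 6.74% and 6.06% of all genes. Another 7 were at 10 TPM in 0 cells, among them the B cell receptor component Cd79a. Cd79b, the partner of Cd79a, was in 6 Cd74-high and 20 other cells (difference -0.40). Cd72, a B cell inhibitory receptor, was in 1 Cd74-high and 9 other cells (difference -0.95). Cd37, a tetraspanin of B and other leukocytes, was the member past the size of 1. It was in 18 Cd74-high and 38 other cells, with medians of 125 and 116 TPM and a difference of 1.33, which was 0.93 in numbers 2 to 6 and turned to -0.24 against cells under 1 TPM of Cd74. The median of the list was -0.40, and its summed level had medians of 230 TPM (0 to 612) in Cd74-high cells and 198 TPM (0 to 1049) in other cells.

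Early lymphoid genes were divided. Of 9 compared, 1 was at least 1 higher and 4 were at least 1 lower, against 6.74% and 6.06% of all genes, and the median was -0.27. Cd27, a receptor of the TNF family on lymphoid-primed progenitors, was in 4 of 20 Cd74-high cells (20%, 5.73 to 43.7%), against 25 of 56 other cells (44.6%, 31.3 to 58.5%), with a difference of -2.0. In the Cd74-high set its level ran from 0 through 0 to 569 TPM, and in the other cells from 0 through 1.06 to 484 TPM, and the highest cell of all was a Cd74-high cell. Ikzf1 (Ikaros), a factor required for lymphoid development, was in 6 Cd74-high cells (30%, 11.9 to 54.3%), against 31 other cells (55.4%, 41.5 to 68.7%), with a difference of -1.47, or -0.88 at a Cd74 threshold of 5 TPM. Sox4, a factor of early B and T development, was in 5 Cd74-high and 27 other cells (difference -1.36). Satb1, a chromatin organiser of lymphoid cells, was in 4 Cd74-high and 17 other cells (difference -1.06, but -0.31 in numbers 7 to 11). The remaining members lay nearer 0, with Mef2c, a factor of lymphoid and myeloid progenitors, at 0.06, the E protein gene Tcf3 at -0.09 and Notch1, the receptor that starts T cell development, at -0.13. Bcl11a, a factor of early B cells, was at -0.27, made of 1.57 in numbers 2 to 6 and -1.45 in numbers 7 to 11.

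Ltb, which encodes lymphotoxin beta, was the exception. It was in 13 Cd74-high cells (65%, 40.8 to 84.6%), against 24 other cells (42.9%, 29.7 to 56.8%). Its level had medians of 87.4 TPM in Cd74-high cells and 3.70 TPM in other cells, a difference of 1.57, with 1.70 and 1.57 in the 2 ranges of title numbers. Clec10a, Flt3 and Ltb were found together at 10 TPM in 9 of 20 Cd74-high cells and 5 of 56 other cells, a trio chosen after the values were seen. The recombination genes Rag1 and Dntt were at 10 TPM in 0 cells, and Rag2 and the interleukin 7 receptor gene Il7r in 0 Cd74-high cells, against 5 and 3 other cells.

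Some T lymphoid genes were lower. Of 6 compared, 0 were at least 1 higher and 3 at least 1 lower, against 6.74% and 6.06% of all genes, with a median of -0.99. Lck, the kinase of the T cell receptor, was in 5 of 20 Cd74-high cells (25%, 8.66 to 49.1%), against 25 of 56 other cells (44.6%, 31.3 to 58.5%). It ran from 0 through 0.843 to 415 TPM in Cd74-high cells and from 0 through 2.49 to 2345 TPM in other cells, with a difference of -1.91 (-1.36 in numbers 2 to 6 and -2.0 in 7 to 11). Tox, a nuclear factor of T and innate lymphoid development, was in 4 Cd74-high and 24 other cells (difference -1.70, or -0.89 in numbers 7 to 11). Lat, the adaptor of T cell and mast cell receptors, was in 13 Cd74-high and 45 other cells (difference -1.14, or -0.91 without the cell highest in Cd74 and -0.38 at a Cd74 threshold of 5 TPM). Tcf7, the T lineage factor, was in 3 Cd74-high and 12 other cells, with a difference of -0.69. Gata3, a T lineage factor also used by innate lymphoid cells, had the opposite sign, in 6 Cd74-high and 13 other cells (difference 0.53, with 1.20 in numbers 2 to 6 and 0.14 in 7 to 11). Cd3g, a chain of the T cell receptor complex, was too rare to be compared, in 3 Cd74-high and 4 other cells. The list's summed level had a median of 157 TPM (1.44 to 2800) in Cd74-high cells and 358 TPM (1.16 to 10574) in other cells.

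Of the NK and innate lymphoid list, 2 genes could be compared and they lay on opposite sides. Nkg7, a cytotoxic granule protein, was in 9 Cd74-high cells (45%, 23.1 to 68.5%), against 38 other cells (67.9%, 54 to 79.7%). Its medians were 6.86 TPM in Cd74-high cells and 427 TPM in other cells, and its difference was -1.91. The chemokine gene Ccl5 was in 6 Cd74-high and 5 other cells (difference 1.52). Granzyme genes were rarer, with Gzmb in 0 Cd74-high and 7 other cells. None of Lck, Tox, Cd27 and Nkg7 reached 10 TPM in 11 of 20 Cd74-high cells and in 9 of 56 other cells. These 4 were put together after their values were seen, so the count describes the cells and adds no support to the single differences.

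**Figure D4:**
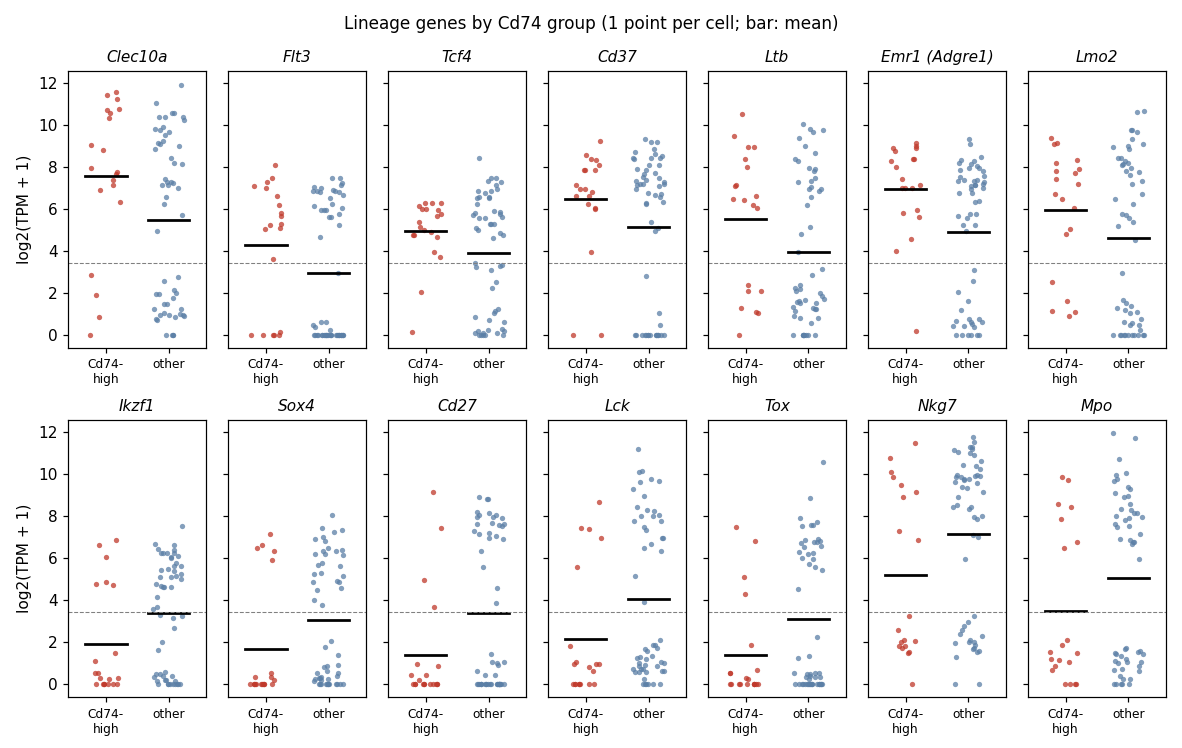
Level of 14 lineage genes in each cell, as log2(TPM + 1), in the 20 Cd74-high cells (red, left) and the 56 other cells (blue, right), with means as solid bars and 10 TPM as a dashed line. The upper row holds genes with higher means in Cd74-high cells (Clec10a by 2.09) and the lower row genes with lower means (Cd27, a difference of -2.0), and points of both sets overlap in every panel.

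Myeloid genes gave no common direction. Of 12 granulocyte-monocyte genes compared, 1 was at least 1 higher and 1 at least 1 lower, against 6.74% and 6.06% of all genes (median -0.07). Mpo, the myeloperoxidase of primary granules, was in 7 Cd74-high and 31 other cells, with medians of 1.87 and 108 TPM and a difference of -1.59. Ctsg, the granule protease cathepsin G, was in 10 Cd74-high and 18 other cells (difference 1.02, or 0.94 in numbers 7 to 11). Prtn3, a further granule protease, was in 14 Cd74-high and 41 other cells (difference -0.02). Spi1 (PU.1, listed as Sfpi1), a factor of myeloid and B cells, was in 19 Cd74-high and 51 other cells (difference 0.70). Fcgr3, a low-affinity Fc receptor, had a difference of -0.89, made of 1.71 in numbers 2 to 6 and -2.74 in numbers 7 to 11.

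Adgre1 (F4/80, listed as Emr1) of the macrophage list was in 19 of 20 Cd74-high cells (95%, 75.1 to 99.9%), against 36 of 56 other cells (64.3%, 50.4 to 76.6%). It had medians of 155 and 81.3 TPM and a difference of 2.08, with 3.29 and 1.09 in the 2 ranges. The defining macrophage genes C1qa, C1qb, C1qc, Mrc1, Mertk and Vcam1 were at 10 TPM in 0 cells, and Cd68, a lysosomal protein of macrophages, was in 4 Cd74-high and 16 other cells. The summed level of the macrophage list was at a median of 321 TPM (3.01 to 922) in Cd74-high cells and 150 TPM (0 to 2075) in other cells. Of 3 mast cell and basophil genes compared, 0 passed the size of 1, against 6.74% and 6.06% of all genes (median -0.71). The mast cell protease Cpa3 was in 13 Cd74-high and 41 other cells.

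Genes of stem and progenitor cells lay on both sides. Of 10 compared, 2 were at least 1 higher and 0 at least 1 lower, against 6.74% and 6.06% of all genes, with a median of 0.72. Lmo2, a scaffold of the blood stem cell factor complex, was in 15 Cd74-high and 31 other cells (difference 1.33, with 2.24 and 0.51 in the ranges). Procr, the endothelial protein C receptor found on stem cells, was in 5 Cd74-high and 6 other cells (difference 1.08, with 0.55 and 1.28), so neither gene was past 1 in both ranges. Lyl1, a partner of Lmo2, was in 20 Cd74-high and 47 other cells, with a difference of 0.99. Of 4 megakaryocyte genes compared, 1 was higher and 0 lower, against 6.74% and 6.06% of all genes (median 0.19). Cd34, the progenitor surface protein, was in 20 Cd74-high and 54 other cells, with medians of 813 and 640 TPM (difference 0.69). The stem cell factor receptor gene Kit, in 7 Cd74-high and 26 other cells, and Meis1, a partner of Hox proteins, in 3 and 14, had differences of -0.67 and -0.76.

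The introduced factors were not past the size of 1. Runx1 was at 10 TPM in 20 of 20 Cd74-high cells, against 50 of 56 other cells, with medians of 125 and 95.3 TPM and a difference of 0.61. Hoxa10 was in 7 Cd74-high and 11 other cells (difference 0.79) and Hoxa9 in 4 and 7 (difference 0.27). Introduced and chromosomal copies are not told apart in these values. Both erythroid genes compared were at least 1 higher, against 6.74% of all genes, but neither was in numbers 2 to 6. The beta-globin gene Hbb-bs (listed as Beta-s) was in 20 Cd74-high and 47 other cells (difference 1.23, or 0.78 in numbers 2 to 6). Car2, a carbonic anhydrase, was in 14 and 29 (difference 1.19, or 0.86 in numbers 2 to 6 and 0.38 against cells under 1 TPM of Cd74). Hbb-bs has near-identical copies in the table, which can share its reads. Of 4 endothelial genes compared, 2 were at least 1 higher and 1 at least 1 lower, against 6.74% and 6.06% of all genes. Eng, a coreceptor for TGF-beta, differed by 1.20 (0.96 in numbers 7 to 11), Plvap by 1.19 (0.37 in numbers 2 to 6) and the adhesion molecule gene Pecam1 by -1.41 (past -1 in both ranges), and Kdr, Tek and Cldn5 were at 10 TPM in 0 cells. Of stromal fibroblast genes, only Pdgfrb could be compared (2 Cd74-high and 10 other cells, difference -0.63), with Col1a1 and Col1a2 in 0 cells.

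DNA replication genes were higher in part. Of 20 S phase genes, 9 were at least 1 higher and 0 lower, against 6.74% and 6.06% of all genes, and the median was 0.82. Mcm2, a subunit of the replicative helicase, was in 15 Cd74-high and 28 other cells, with medians of 93.9 and 6.49 TPM and a difference of 1.78 (-0.22 in numbers 2 to 6 and 3.34 in 7 to 11). Rrm2, of the ribonucleotide reductase, was in 10 and 14 (1.73), the flap endonuclease gene Fen1 in 17 and 35 (1.61), and the sliding clamp gene Pcna in 16 and 38 (1.41, with -0.03 in numbers 2 to 6 and 2.60 in 7 to 11). The list was uneven over titles. In numbers 2 to 6 its median was -0.12, with 4 members higher and 1 lower, against 16% and 15% of all genes there. In numbers 7 to 11 the list median was 1.21, with 11 higher and 0 lower, against 13.5% and 10.9% of all genes there. Of 20 genes of the G2 and M phases, 1 was higher and 1 lower, against 6.74% and 6.06% of all genes (median -0.11). The mitotic kinase gene Aurkb differed by 1.48 and the centromere histone gene Cenpa by -1.15, or -0.01 against cells under 1 TPM of Cd74.

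Interferon can raise both Cd74 and class II genes, and whether it did so here was not tested. Of 12 interferon response genes compared, 1 was higher and 0 lower, against 6.74% and 6.06% of all genes, with a median of -0.01. Ifngr2, a chain of the interferon gamma receptor, was in 10 Cd74-high and 21 other cells (difference 1.04, or 0.90 in numbers 2 to 6). Of 8 general transcription and housekeeping genes, 0 passed the size of 1, against 6.74% and 6.06% of all genes (median 0.11).

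**Figure D5:**
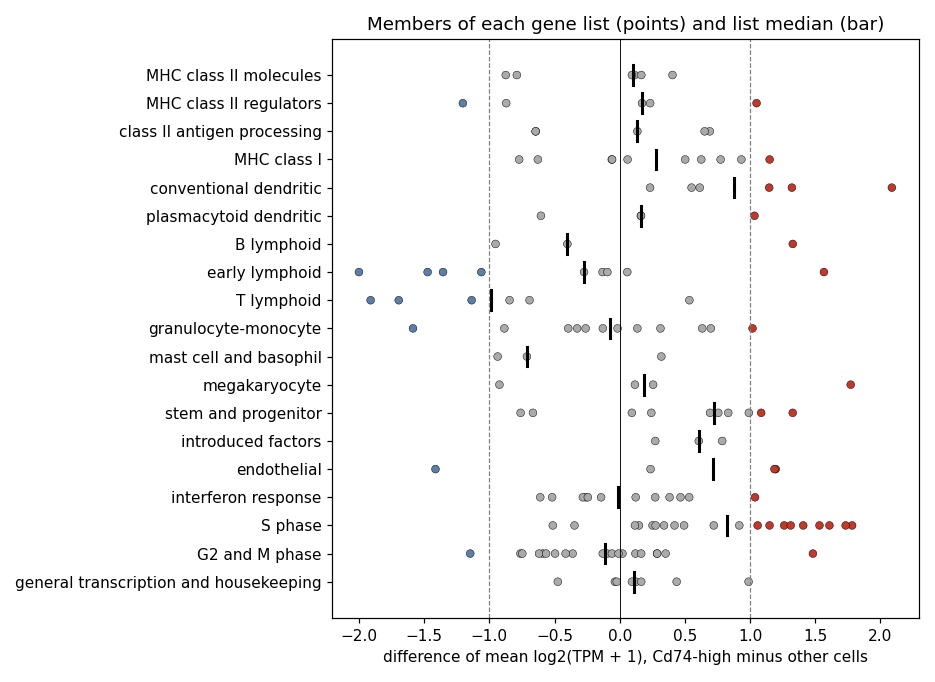
Difference of mean log2(TPM + 1), Cd74-high minus other cells, for the compared members (points) of each gene list with at least 3 such members, with the list median as a bar. Red points are at least 1 and blue points at most -1: the class II molecules hold neither, the S phase list holds 9 red points and the T lymphoid list 3 blue ones.

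The genes that differed most were not antigen presentation genes. Among genes at 10 TPM in at least 15 cells, Prdx4, a peroxiredoxin of the endoplasmic reticulum, had the largest difference apart from Cd74. It was in 18 of 20 Cd74-high cells (90%, 68.3 to 98.8%), against 21 of 56 other cells (37.5%, 24.9 to 51.5%). It ran from 0 through 178 to 1139 TPM in Cd74-high cells and from 0 through 0.570 to 538 TPM in other cells. The difference was 3.79, with 3.32 and 4.04 in the 2 ranges of title numbers and 2.06 at a Cd74 threshold of 5 TPM. Cnpy3, a chaperone of the endoplasmic reticulum that helps fold Toll-like receptors, was in 19 Cd74-high and 29 other cells (difference 2.86). Scoc was in 13 and 12 (2.81), the kinase gene Map2k3, an activator of p38, in 19 and 33 (2.57), and the ubiquitin ligase gene Rnf181 in 20 and 38 (2.38). Cdt1, which licenses replication origins, Lyrm5, Rab44 and Gp49a followed, at 2.24 to 2.30. Gp49a, an immunoglobulin-like receptor gene with a close copy, differed by 4.71 in numbers 2 to 6 and by 0.25 in numbers 7 to 11. At a Cd74 threshold of 5 TPM, Cnpy3 was at 1.95, Scoc at 2.04, Map2k3 at 2.53 and Rnf181 at 1.39. Under the same setting Cdt1 was at 1.57, Lyrm5 at 1.89, Rab44 at 2.91 and Gp49a at 1.82.

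At the other end, Mpdu1, which serves mannose donation in glycosylation, was in 4 Cd74-high and 31 other cells (difference -2.59). Orc5, of the origin recognition complex, was in 0 of 20 Cd74-high cells (0 to 16.8%), against 20 of 56 other cells (23.4 to 49.6%). Its highest values were 0.734 TPM in Cd74-high cells and 272 TPM in other cells, a difference of -2.31. Dcxr, Fgfr1op, Trafd1, Dhrs3, Cd320, Haghl, Usp39 and Ada followed, from -2.30 to -2.16, and Dhrs3, a retinal reductase, was at -0.19 against cells under 1 TPM of Cd74. Ada, adenosine deaminase, was in 6 Cd74-high and 34 other cells. These extremes were the ends of 7805 genes ranked by size and were not tested.

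Rank correlation with Cd74 over all 76 cells is given as a description. Among genes at 10 TPM in at least 15 cells, high Spearman rho values, all weak, belonged to Rab44 (0.44), the tetraspanin gene Cd81 (0.37), Armc7 (0.37) and Cnpy3 (0.36). H2-Ab1 had a rho of 0.04, H2-DMa of -0.03 and H2-Ob of 0.18. The order was different within the 20 Cd74-high cells. There rho was -0.03 for Rab44, 0.28 for Cd81, 0.34 for Armc7 and 0.15 for Cnpy3. H2-Ab1 had 0.32 within these cells, H2-DMa -0.19 and H2-Ob 0.37. The cells share 1 table and 1 protocol, and 56 of the 76 ranks came from Cd74 values under 10 TPM. Cd81 was in 20 Cd74-high and 52 other cells, with medians of 919 and 621 TPM. Its lowest Cd74-high cell stood at 308 TPM, whereas other cells went down to 2.42 TPM.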

How the data were processed

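RNA was measured in 76 single sorted iHPCs, and the authors deposited 1 table of TPM with 15192 genes. Tools credited to the submitters' processing notes are HISAT2 2.1.0 and StringTie 1.3.4, beside bcl2fastq and SAMtools 0.1.19, with mm10 as the build. Neither the sequence of steps nor the annotation is given in the sources used here. Depth is unknown, a 0 can be a failed capture, and a gene's TPM falls when other genes take more of a cell's transcripts. Doublets were not searched for, since sorted single cells were amplified one by one.

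A total of 290 genes in 23 lists were looked up, 271 were found, and 4 of these were listed under an older symbol that RefSeq gives as a synonym. Members, lists and settings were chosen with earlier results of these data known. A gene counted as found in a cell at 10 TPM. The calculation of differences of mean log2(TPM + 1) was checked by adding a known change to shuffled values, which it returns by construction. That check did not cover low or missed genes. Adding 1 before the logarithm understates changes of low genes. Named genes are members of the class II, dendritic, B and early lymphoid lists at 10 TPM in at least 8 cells, up to 4 members of other lists, the 10 largest differences each way and the 5 highest correlations. Further list members were named after their values were seen. Some genes that this rule picks are not reported here. Python 3.11.15, numpy 2.4.6, pandas 2.3.3 and scipy 1.17.1 were used. Alternatives were other Cd74 thresholds, subsets of cells, pseudocounts, filters and scalings.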

Additional observations from a re-analysis of the deposited data

How the results depend on the processing

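No paired analysis was possible because all cells form 1 group and no replicate number is shared. The settings were planned except leaving out title letter C, which was added after seeing the data. The 526 higher and 473 lower genes became 1248 and 1167 in title numbers 2 to 6, 1051 and 852 in numbers 7 to 11, and 1129 and 1032 with a pseudocount of 0.1. Fewer cells, or a lower pseudocount, widen differences by construction. Against cells under 1 TPM of Cd74 only, the counts were 728 and 1348, so the balance of higher and lower genes was different there. That setting kept fewer other cells, 2 with Cd74 at 0 and 10 above 0 but under 1 TPM. Under the other settings run, both counts stayed within 1.5 times. Without the cell highest in Cd74 they were 663 and 422. The median class II difference of 0.10 was -0.75 in numbers 7 to 11 and between -0.40 and 0.32 under the other settings. The share with H2-Ab1 was 12.5% and 75% of Cd74-high cells in numbers 2 to 6 and 7 to 11, and 66.7% of other cells under 1 TPM of Cd74. At 1 TPM it was 75% of Cd74-high and 83.9% of other cells. Of 49 named genes past a size of 1, 1 changed sign in 1 setting: Cd37, at -0.24 against cells under 1 TPM of Cd74. Of their 588 values under alternative settings, 87 moved by more than the SD over genes of 0.66. In size, 7 genes fell under 1 at a Cd74 threshold of 5 TPM and 7 against cells under 1 TPM of Cd74. In numbers 2 to 6, 8 did so, and 5 in numbers 7 to 11. Among cells with at least 3500 genes 8 did, and 5 without the cell highest in Cd74. Past 1 in both ranges of title numbers were 36 of the 49, a count that their choice on all cells favours. The cause of the other shifts was not tested.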
